A study of Mus musculus with 23 samples.

Results

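The surface epithelium of the colon takes up chloride, sodium and water and secretes bicarbonate, and 10 genes of this machinery were followed in mice kept on diets of different fat content. They are Car1, Car2, Car4, Slc26a2, Slc26a3, Aqp8, Slc9a3, Cftr, Guca2a and Guca2b, each taken from the deposited counts by its gene symbol, which makes 10 of the 24917 loci listed. All 10 passed the filter on low counts. RNA came from colonic epithelium of male C57BL/6 mice (C57BL/6J in the study's methods) that started their diet at 6 weeks of age and stayed on it for 43 weeks. LF mice ate a diet with 10% of its energy from fat throughout, HF mice a lard-based diet with 60%, and HFLF mice the 60% diet for 15 weeks and then the 10% diet for 28 weeks. The labels name no transgene and no drug. Epithelium was detached from the whole colon with EDTA, so each library mixes cells of its proximal and distal parts. Batch 1 held 4 LF, 3 HF and 4 HFLF libraries, and batch 2 held 4 LF, 3 HF and 5 HFLF libraries. The methods of the study give fewer mice per regimen than the batches together hold, so it is not established that all 23 libraries are separate mice, and p-values measure only the spread between these libraries.

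Carbonic anhydrases turn carbon dioxide and water into bicarbonate and protons. In the colonocyte the cytosolic enzymes CAR1 and CAR2 supply the bicarbonate that SLC26A3 exchanges for luminal chloride. They also supply the protons that SLC9A3 (NHE3) exchanges for sodium. CAR4 is a membrane-anchored carbonic anhydrase. SLC26A2 is a sulfate transporter of the same family as SLC26A3, AQP8 is a water channel, and CFTR is the chloride channel that drives secretion. Guca2a and Guca2b encode guanylin and uroguanylin, peptides released into the lumen that bind guanylate cyclase C, raise cyclic GMP, open CFTR and restrain SLC9A3.

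Guca2a (chr4:119637732-119639465, plus strand, mm10) and Guca2b (chr4:119656603-119658945, minus strand) are neighbours that point towards each other, and only Guca2b was called between the diets, so the 250 bases before each start are shown. They were taken from RefSeq's GRCm38.p6 promoters, which held 7 of the 10 genes, at chr4:119637482-119637731 for Guca2a and chr4:119658946-119659195 for Guca2b. Capitals mark matches on either strand to GTTAAT (an HNF1 half-site), GATAA (the GATA core) and CACCC (bound by KLF factors). TATAAA was searched as well, and the letters were chosen with these sequences in view.
Guca2a: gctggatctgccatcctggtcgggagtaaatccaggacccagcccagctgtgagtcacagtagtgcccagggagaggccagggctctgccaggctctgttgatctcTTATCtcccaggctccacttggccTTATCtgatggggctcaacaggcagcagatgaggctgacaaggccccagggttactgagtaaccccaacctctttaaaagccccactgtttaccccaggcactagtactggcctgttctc
Guca2b: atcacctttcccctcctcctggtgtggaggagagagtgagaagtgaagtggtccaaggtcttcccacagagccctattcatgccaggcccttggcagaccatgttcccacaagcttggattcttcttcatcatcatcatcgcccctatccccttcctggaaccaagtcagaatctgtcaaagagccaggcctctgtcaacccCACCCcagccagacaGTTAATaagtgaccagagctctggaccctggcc
The Guca2a stretch held GATAA at 2 places, beginning at -144 and -120 from the start, and none of the other letters. The Guca2b stretch held CACCC at -48 and GTTAAT at -33, with no GATAA and no TATAAA. Of 32851 promoter stretches of the same length, 22.6% held GATAA, 52% CACCC, 6.43% GTTAAT and 12.4% TATAAA. These matches describe letters only.

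The counts per library lay between 29189922 and 65320947. Epithelial genes were abundant in all 23 libraries, with a summed level of 12000 to 15770 CPM (counts scaled to library size, with TMM factors) for 9 genes led by Krt8 and Krt19. Markers of surface colonocytes (led by Lypd8 and Ceacam1) summed to 9177 to 13060 CPM, of goblet cells (Muc2, Fcgbp) to 17730 to 43990, of stem and cycling cells (Mki67, Top2a) to 310.5 to 648.1, of enteroendocrine cells (Chgb, Chga) to 156.8 to 407.2, and of tuft cells (Dclk1, Trpm5) to 57.3 to 84.0. The markers of other tissues were far lower. Stroma and muscle (Col3a1, Vim) summed to 4.94 to 90.6 CPM, immune cells (Ptprc, Lyz2) to 12.6 to 28.6 and endothelium (Pecam1, Kdr) to 1.65 to 10.3, and 4 globin genes of red blood cells were listed at 0 in every library. Between HF and LF mice over both batches, 0 markers of epithelium, tuft cells, immune cells, stroma, endothelium and distal colon were called. Higher in HF mice were 2 of 11 surface colonocyte, 2 of 7 goblet and 3 of 7 stem and cycling markers, and lower were 1 of 7 stem and cycling and 3 of 5 proximal colon markers, beside 18.1% of all genes called in either direction. The part of these markers in the results below was not tested. Distal colon genes (Hoxb13, Hoxd13) summed to 203.8 to 393.6 CPM and proximal colon genes (Aqp4, Osr2) to 442.3 to 940.9. HF replicate 3 of batch 1 stood apart, with the lowest stromal, endothelial and goblet sums of all libraries, and the values of Slc9a3, Guca2a, Guca2b, Cftr and Slc26a2 are given with and without it. In bulk RNA, fewer cells of a type and less RNA per cell cannot be told apart.

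Per kilobase of annotated exon, the order of the levels was nearly the same in every group. In LF mice of batch 2, Car1 led with 3094 ± 568 CPM per kb (SD, n = 4). Guca2a followed with 1973 ± 274 and Car2 with 690 ± 95.8. Slc26a3 had 297 ± 61.3, Car4 219 ± 45.3 and Aqp8 215 ± 43.9 CPM per kb, and the ranges of neighbouring genes among these 3 overlapped. Slc26a2 lay at 119 ± 11.2, Cftr at 42.4 ± 1.91, Slc9a3 at 24.6 ± 4.12 and Guca2b at 19.7 ± 1.31. The ranges of Slc9a3 and Guca2b overlapped as well. Guca2b had the lowest mean in every group but HF mice of batch 2, and its counts of 339 to 1642 reads per library still exceeded the limit of 3 counts by far. In number of reads, 1.15 ± 0.0244 Guca2b reads (SD, n = 4) were counted for each 100 Guca2a reads in LF mice of batch 1 and 1.49 ± 0.269 (SD, n = 4) in those of batch 2.

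**Figure D1:**
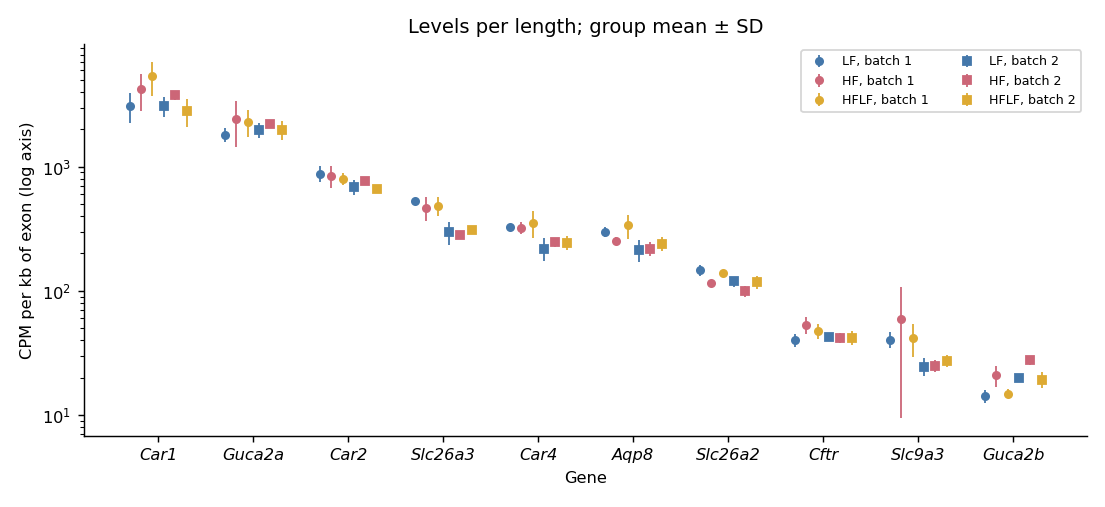
Levels of the 10 genes in CPM per kb of exon on a log axis, as the group mean with its SD, for LF, HF and HFLF mice of batch 1 (circles) and batch 2 (squares). Car1 and Guca2a lie highest and Slc9a3 and Guca2b lowest, and the bar of Slc9a3 in HF mice of batch 1 is wide because 1 library stands apart.

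The first question was which of these genes differ between HF and LF mice. A gene counted as called where the fold change exceeded 1.2 and the adjusted p was below 0.05 in edgeR's quasi-likelihood test, with Benjamini-Hochberg adjustment over all genes. In batch 1, 0 of the 10 genes were called, as were 0% of all genes tested. At an unadjusted p under 0.05 there were 3 of 10 (Guca2b, Slc26a2 and Cftr), against 22.2% of all genes. DESeq2 called 2 of 10 there, against 3.55% of all genes, and limma voom called the 3 genes named, against 16.8% of all genes. In batch 2, 1 of 10 was called, Guca2b, against 7.44% of all genes. Over both batches, with batch as a covariate, 2 of 10 were called, against 18.1% of all genes, a share close to that background. Guca2b was higher and Slc26a2 lower in HF mice. The HF and LF libraries did not overlap for 3 of 10 genes in batch 1 (13.6% of all genes) and for 2 of 10 in batch 2 (27.3% of all genes). The median log2 fold change of the 10 genes was 0.19 in batch 1, 0.09 in batch 2 and 0.14 over both, beside medians of -0.00377, -0.0128 and -0.00801 over all genes tested.

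HFLF mice were compared with HF mice to ask how the groups differed when the last 28 weeks were on the low-fat diet. No library was taken at 15 weeks, before the switch. A gene that returned after the switch thus cannot be told apart from one that had not yet changed by then. In batch 1, 0 of 10 genes were called, against 0.00693% of all genes, with 0 of 10 by DESeq2 and by limma voom. At an unadjusted p under 0.05 there were 3 of 10 (Guca2b, Slc26a2 and Aqp8), against 10.9%. In batch 2, 1 of 10 was called, again Guca2b, against 14.5% of all genes. Over both batches 2 of 10 were called, against 10.3%, with Guca2b lower and Slc26a2 higher in HFLF mice. The 2 groups did not overlap for 2 of 10 genes in batch 1 (8.02% of all genes) and for 2 of 10 in batch 2 (27% of all genes). This comparison and the one before share the HF libraries.

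HFLF and LF mice were compared to ask whether mice once fed the high-fat diet differed from mice never fed it. In this comparison 0 of 10 genes were called in batch 1, batch 2 and both batches by edgeR, DESeq2 and limma voom. By edgeR, the background was 0%, 0.00696% and 0% of all genes in the same order. At an unadjusted p under 0.05 there were 1, 0 and 0 of 10 genes, against 5.29%, 4.65% and 4.11% of all genes. The 1 gene was Car1 in batch 1.

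**Figure D2:**
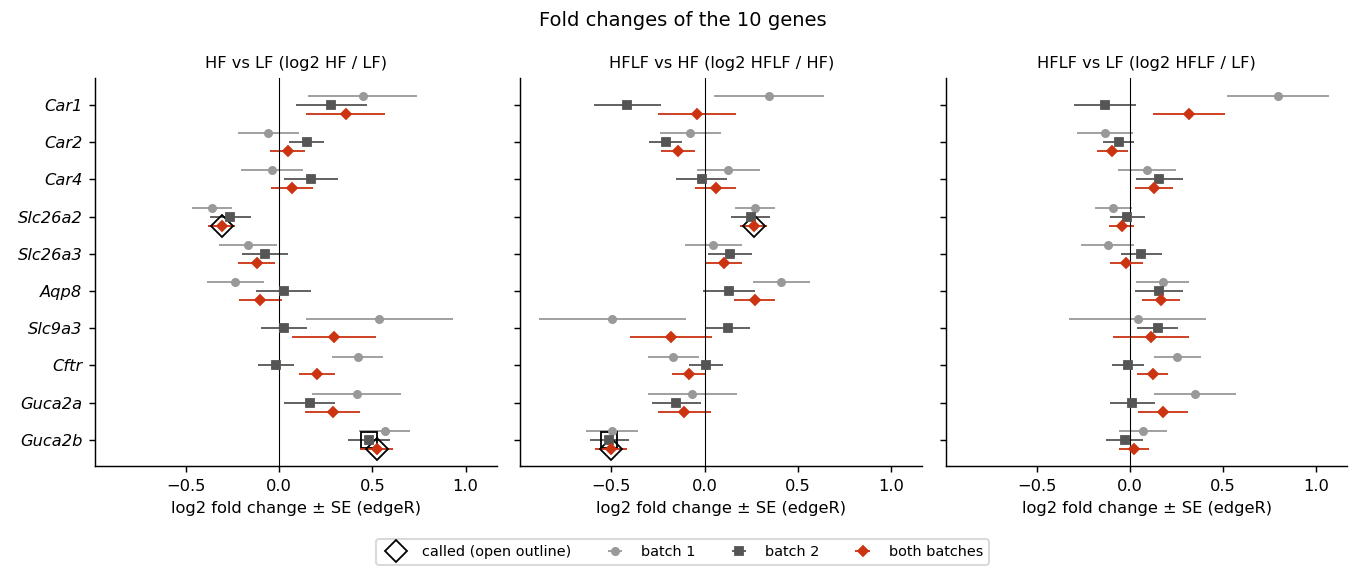
Fold changes of the 10 genes on the log2 scale with their SE from edgeR's fit, in 3 panels for HF against LF, HFLF against HF and HFLF against LF. Circles are batch 1, squares batch 2 and diamonds both batches, and an open outline marks a called gene. Guca2b lies to the right in HF against LF and to the left in HFLF against HF in both batches, and Slc26a2 the other way round.

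Guca2b, the gene of uroguanylin, was higher in HF mice than in both other groups in both batches. In batch 1 its level was 12.1, 11.7, 11.1 and 14.4 CPM in the LF libraries, 17.8, 15.0 and 21.8 CPM in the HF libraries, and 12.4, 13.2, 14.3 and 11.8 CPM in the HFLF libraries. In batch 2 it was 18.68, 17.18, 15.99 and 16.71 CPM in LF, 21.6, 25.1 and 25.1 CPM in HF, and 14.6, 20.1, 18.2, 13.9 and 17.15 CPM in HFLF. Every HF library lay above every LF and every HFLF library of its batch, while LF and HFLF libraries overlapped. Against LF mice the log2 fold change was 0.57 (SE 0.139, adjusted p = 0.139 by edgeR) in batch 1 and 0.48 (SE 0.111, adjusted p = 0.0310 by edgeR) in batch 2. Over both batches it was 0.52 (SE 0.0878, adjusted p = 0.00164 by edgeR), a 1.44-fold higher level, and the exact permutation test on log2 CPM within batches gave p = 0.000816. This is the lowest p possible with its 1225 arrangements. It is not adjusted for the choice of gene and uses the same values, so it adds no separate support.

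Between HFLF and HF mice the log2 fold change of Guca2b was -0.50 in batch 1, which was not called (adjusted p = 0.412 by edgeR), and -0.51 in batch 2 (adjusted p = 0.0138 by edgeR). Over both batches Guca2b was lower in HFLF mice by 0.50 (SE 0.0853, adjusted p = 0.00499 by edgeR). Between HFLF and LF mice the log2 fold change over both batches was 0.02, with a 95% interval of -0.14 to 0.19. The HF effect in batch 2 minus that in batch 1 was -0.09 (SE 0.182, adjusted p = 0.967 by edgeR). The called difference from LF mice in batch 2 rested on few libraries, since leaving out 1 of 5 libraries in turn (HF replicates 2 and 3 and LF replicates 1, 2 and 3) ended it (adjusted p = 0.0541 to 0.166), while the log2 fold change stayed within 0.45 and 0.55. The call between HFLF and HF mice in batch 2 was lost without HF replicate 2 (-0.49, adjusted p = 0.101 by edgeR).

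Several enteroendocrine markers were also higher in HF mice. Over both batches 4 of 7 (Gcg, Pyy, Insl5 and Cck) rose and 0 fell, beside 18.1% of all genes called, while Chgb, Chga and Neurod1 were not called. In batch 2 the list summed to 270.8 to 366.9 CPM in LF mice, 397.0 to 407.2 CPM in HF mice and 271.0 to 360.1 CPM in HFLF mice. In batch 1 the sums were 156.8 to 230.8 CPM in LF, 202.7 to 278.6 CPM in HF and 184.4 to 224.6 CPM in HFLF, and no marker of the list stood at 0 in any library. The sum is mostly Chgb and Chga (means of 110.3 and 92.4 CPM), so it says little about the markers that rose. Within groups, Guca2b and the sum had r = -0.40 in batch 1 and in batch 2, a description over few libraries. The part of enteroendocrine cells in the result was not tested.

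Slc26a2, the sulfate transporter, had the opposite pattern at a smaller size. In batch 1 its level was 1201, 1362, 1178 and 1072 CPM in the LF libraries, 973, 977 and 865 CPM in the HF libraries, and 1176, 1100, 1059 and 1191 CPM in the HFLF libraries. The batch 2 levels were 880, 917, 1023 and 1078 CPM in LF, 878, 723 and 838 CPM in HF, and 1116, 809, 900, 983 and 1019 CPM in HFLF. All HF libraries lay below all LF libraries of their batch, in batch 2 by a margin of only 880.3 against 878.0 CPM, and HF and HFLF libraries overlapped in batch 2. The log2 fold change between HF and LF mice was -0.36 in batch 1 (adjusted p = 0.160 by edgeR) and -0.26 in batch 2 (adjusted p = 0.115), neither of them called. Over both batches it fell by 0.31 (SE 0.0737, adjusted p = 0.00727 by edgeR, and p = 0.00163 by the exact permutation test within batches), and by 0.27 without HF replicate 3 of batch 1 (adjusted p = 0.0248).

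In HFLF mice Slc26a2 was higher than in HF mice by 0.26 on the log2 scale over both batches (SE 0.0721, adjusted p = 0.0214 by edgeR). This value sits at the fold threshold, and the call was lost in 16 of 23 fits that each left out 1 library, with log2 fold changes of 0.22 to 0.26. In 2 of these fits the adjusted p was above 0.05 as well, without HF replicate 3 of batch 1 (adjusted p = 0.067) and without HF replicate 2 of batch 2 (adjusted p = 0.0751). Within the batches it was 0.27 (adjusted p = 0.423) and 0.25 (adjusted p = 0.0982 by edgeR). Between HFLF and LF mice the log2 fold change was -0.04, with a 95% interval of -0.18 to 0.09.

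**Figure D3:**
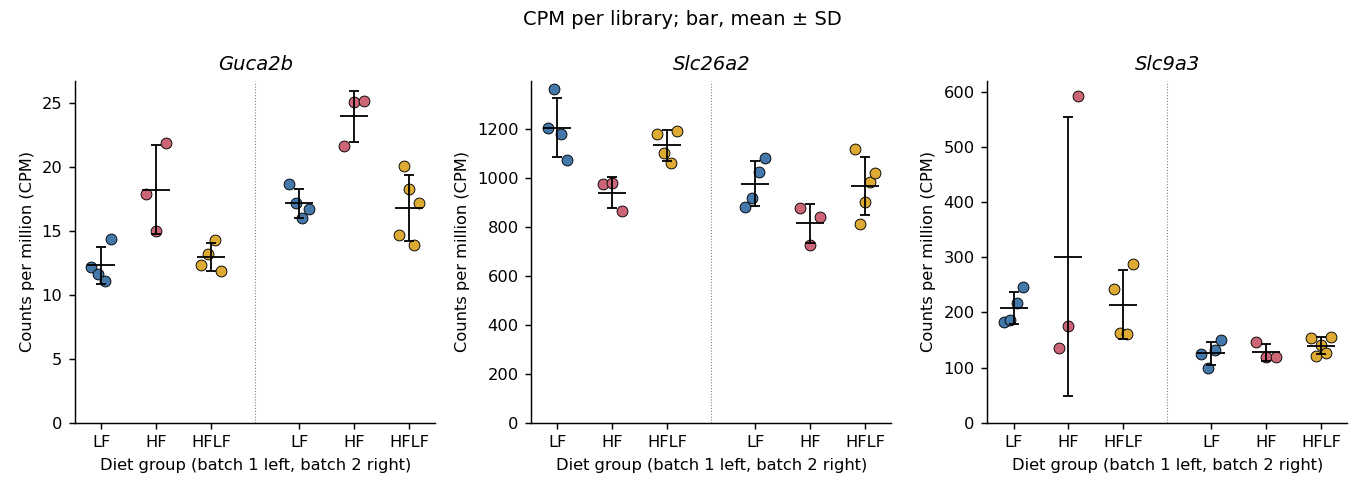
Levels of Guca2b, Slc26a2 and Slc9a3 in CPM in each library, with the mean and SD of each group, batch 1 at the left and batch 2 at the right of each panel. HF libraries lie highest for Guca2b and lowest against LF for Slc26a2 in both batches, and 1 HF library of batch 1 lies at 592 CPM for Slc9a3.

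These 2 genes differ in transcript length and GC content, and both properties moved with the diet across all genes. The longest annotated transcript has 697 bases for Guca2b and 7814 for Slc26a2. Over both batches, the fifth of tested genes with transcripts of up to 1851 bases had a median log2 fold change of 0.10 in HF against LF mice, and the fifth with 5165 bases or more one of -0.105. Guca2b is the shorter gene and was higher, and Slc26a2 is the longer and was lower. For GC content the order ran the other way for this pair. The fifth of genes with at most 44% GC had a median of 0.10 and the fifth with 55.54% or more one of -0.148, while Guca2b, with 54.5% GC, was higher and Slc26a2, with 44.7%, lower. With each library corrected for transcript length and GC content, a step added after the data were seen, Guca2b kept a log2 fold change of 0.48 (adjusted p = 0.00173 by edgeR). It was lower in HFLF than in HF mice by 0.48 (adjusted p = 0.00284 by edgeR). Under the same correction Slc26a2 had -0.25 in HF against LF mice (adjusted p = 0.0227), below the fold threshold, and 0.19 in HFLF against HF mice (adjusted p = 0.0678). Its batch 2 values dropped to -0.14 (adjusted p = 0.315 by edgeR) and 0.10 (adjusted p = 0.409) under the correction, and its batch 1 values stayed at -0.36 and 0.27. Over both batches Guca2b was called with and without the correction, and Slc26a2 only without it. The share of all genes called fell under it too, from 18.1% to 8.96% (HF against LF) and from 10.3% to 6.28% (HFLF against HF).

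Across the 23 libraries, Guca2b and Slc26a2 were the pair with the most negative relation of the 45 pairs among the 10 genes. After each group's mean was removed, r was -0.73 (Spearman's rho -0.73), with -0.72 over the 11 libraries of batch 1 and -0.76 over the 12 of batch 2. Without the 2 libraries farthest from the median of Slc26a2 it was -0.68, and after the length and GC correction it was -0.52. The 2 values of each point come from 1 library and share its depth and base composition, so this is a description.

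**Figure D4:**
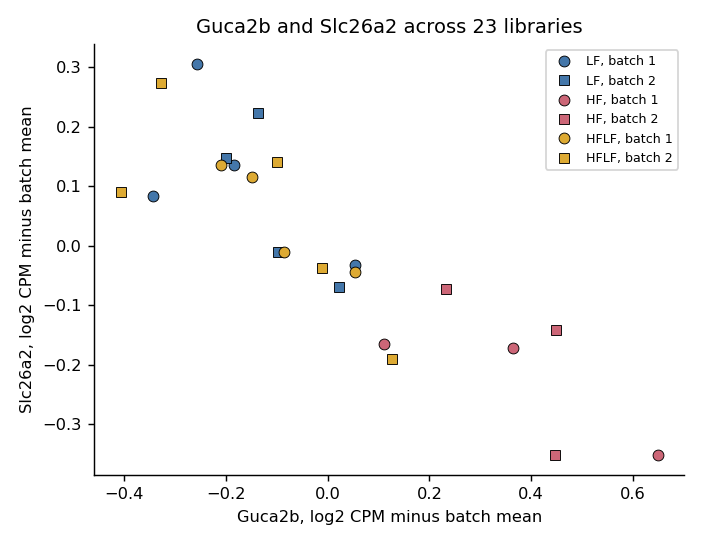
Guca2b (horizontal axis) and Slc26a2 (vertical axis) as log2 CPM minus the mean of the batch, 1 point per library, coloured by diet and shaped by batch. The HF libraries lie to the lower right, next to 1 HFLF library of batch 2, and the other libraries run along the same downward line towards the upper left.

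Guca2a, the gene of guanylin, was not called in any comparison with all libraries. Its level was 1035, 1001, 985 and 1272 CPM in LF libraries of batch 1, and 1274, 957 and 2063 CPM in HF libraries. In batch 2 it was 1023, 1107, 1155 and 1402 CPM in LF and 1229, 1361 and 1346 CPM in HF. The groups overlapped in both batches. Over both batches the log2 fold change was 0.29 with a 95% interval of -0.01 to 0.59 (adjusted p = 0.136 by edgeR), so a rise like that of Guca2b lay within the interval. Without HF replicate 3 of batch 1 it was 0.15 (adjusted p = 0.421 by edgeR), and 0.06 within batch 1. Without HF replicate 2 of batch 1 it was 0.38 and was called (adjusted p = 0.039 by edgeR). The ratio of Guca2b to Guca2a reads was 1.34 ± 0.257 per 100 (SD, n = 3) in HF mice of batch 1 and 1.82 ± 0.0573 (SD, n = 3) in those of batch 2. Against LF mice this ratio was 0.26 higher on the log2 scale over both batches (exact permutation test within batches, p = 0.0286, adjusted p = 0.0572 over the 2 ratios computed). In batch 1 alone it was 0.21 higher (exact permutation test, p = 0.286). In batch 2 alone it was 0.31 higher (exact permutation test, p = 0.114). The ratios of HF and LF libraries overlapped in both batches. HF replicate 3 of batch 1, at 1.06 per 100, lay below all LF libraries of its batch, at 1.12 to 1.17. Between HFLF and HF mice the difference was -0.40 (exact permutation test within batches, p = 0.0138, adjusted p = 0.0276). It was -0.455 in batch 1 (exact permutation test, p = 0.143). In batch 2 it was -0.35 (exact permutation test, p = 0.0179, adjusted p = 0.0358). The other ratio was Slc26a2 to Slc26a3. Over both batches it differed by -0.19 between HF and LF mice (exact permutation test within batches, p = 0.114). Between HFLF and HF mice it differed by 0.16 (exact permutation test within batches, p = 0.153).

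Cftr, the secretory chloride channel, was called as higher under HF in batch 1 by limma voom, and not by edgeR or DESeq2. Its level there was 277, 275, 351 and 293 CPM in LF libraries, 372, 359 and 470 CPM in HF libraries and 369, 291, 362 and 404 CPM in HFLF libraries. Batch 2 levels were 327, 319, 297 and 328 CPM in LF, 319, 280 and 342 CPM in HF and 309, 290, 273, 368 and 339 CPM in HFLF. The HF and LF libraries were apart in batch 1 and overlapped in batch 2. The log2 fold change was 0.42 in batch 1 (SE 0.134, adjusted p = 0.162 by edgeR), -0.02 in batch 2 (SE 0.0969, adjusted p = 0.914) and 0.20 over both (adjusted p = 0.104). In batch 1 limma voom gave 0.37 (adjusted p = 0.0322) and DESeq2 0.42 (adjusted p = 0.0574). Without HF replicate 3 of batch 1, edgeR gave 0.30 in batch 1 (adjusted p = 0.548) and 0.14 over both (adjusted p = 0.248). Without HF replicate 2 of batch 2 the value over both was 0.27 and was called (adjusted p = 0.0487). The difference between the batches was -0.44 (SE 0.171, unadjusted p = 0.017, adjusted p = 0.708 by edgeR), in a test that 0 of 14385 genes passed after adjustment. An antisense gene, Gm15592, and a pseudogene overlap Cftr, and whether strand was used in counting is not given in the sources used here.

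Slc9a3, the sodium-hydrogen exchanger NHE3, was dominated by 1 library. Its level in batch 1 was 182, 186, 217 and 245 CPM in LF, 136, 176 and 592 CPM in HF and 243, 163, 160 and 288 CPM in HFLF. The HF libraries other than replicate 3 lay below every LF library. In batch 2 the 3 groups overlapped within 98.5 and 155 CPM. The log2 fold change between HF and LF mice was 0.54 in batch 1 (SE 0.394, adjusted p = 0.412 by edgeR), and -0.41 without HF replicate 3. The value in batch 2 was 0.03 (adjusted p = 0.905). The same library was the highest of its group for 7 of the 10 genes, Guca2a and Guca2b among them, and without it the log2 fold change of Guca2b was 0.42 in batch 1 and 0.48 over both batches.

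The carbonic anhydrases did not pass the test. Car1 was the most variable, at 4612, 3038, 4897 and 2852 CPM in LF libraries of batch 1, 6445, 3267 and 6056 CPM in HF libraries and 8748, 3981, 6365 and 7613 CPM in HFLF libraries. Levels in batch 2 were 3247, 3367, 4007 and 4787 CPM in LF, 4261, 5059 and 4709 CPM in HF and 2399, 4328, 4030, 2676 and 4119 CPM in HFLF. HFLF mice thus included the highest levels of batch 1 and the lowest of batch 2, with overlap in both. Against LF mice the log2 fold change of HFLF mice was 0.79 in batch 1 (SE 0.274, adjusted p = 0.792 by edgeR) and -0.13 in batch 2 (SE 0.169, adjusted p = 1.00). The difference between the batches was -0.94 (SE 0.341, unadjusted p = 0.0111, adjusted p = 0.632 by edgeR), a test added after the data were seen. The proximal colon markers summed to 442.3 to 581.9 CPM in LF and 533.3 to 940.9 CPM in HFLF libraries of batch 1, and to 458.2 to 647.3 CPM and 515.1 to 612.1 CPM in batch 2. Aqp4 made up most of these sums, with a mean of 534.2 CPM against 30.7 for Osr2, the next highest. In HFLF against LF mice of batch 1 the 5 markers had a median log2 fold change of 0.11. Within groups Car1 and the sum, which is mostly Aqp4, had r = 0.60. The part of the colon region sampled in the Car1 values was not tested. Between HFLF and HF mice of batch 2 Car1 had -0.41 (adjusted p = 0.111 by edgeR), and was called with the replicate number as a block (-0.52, adjusted p = 0.0476). With the length and GC correction it was -0.23 (adjusted p = 0.283).

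Car2 ranged from 1167 to 1795 CPM in batch 1, with all 3 groups overlapping. In batch 2 it was 1390, 1384 and 1327 CPM in HF and 1101, 1194, 1260, 1194 and 1162 CPM in HFLF libraries, which did not overlap. The log2 fold change of HFLF against HF mice there was -0.21 (SE 0.0881, adjusted p = 0.0981 by edgeR), and it was -0.14 over both batches (adjusted p = 0.268). Against LF mice, the HF values over both batches were 0.05 (95% interval -0.15 to 0.24) for Car2 and 0.07 (-0.17 to 0.31) for Car4 on the log2 scale. Car4 ranged from 287.6 to 527.8 CPM in batch 1 and from 205.3 to 345.7 CPM in batch 2, with overlap between all groups. The interval of Car1 was wider, at 0.36 (-0.08 to 0.80), and with the length and GC correction the value was 0.09 (adjusted p = 0.753 by edgeR).

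Slc26a3, the chloride-bicarbonate exchanger, and Aqp8 did not pass the test either. The HF values against LF mice over both batches were -0.12 (95% interval -0.33 to 0.09) for Slc26a3 and -0.10 (-0.34 to 0.13) for Aqp8 on the log2 scale. Aqp8 was at 387, 344 and 401 CPM in HF and at 554, 374, 454 and 625 CPM in HFLF libraries of batch 1. Its batch 2 levels were 277, 353 and 347 CPM in HF and 350, 316, 431, 323 and 366 CPM in HFLF. The groups overlapped in both batches, and the log2 fold change of HFLF against HF mice over both was 0.27 (SE 0.112, adjusted p = 0.0898 by edgeR). Slc26a3 ranged from 1185 to 1705 CPM in batch 1 and from 679 to 1101 CPM in batch 2. A processed pseudogene overlaps each of Slc26a3 and Car1, so reads shared with them are uncertain.

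**Figure D5:**
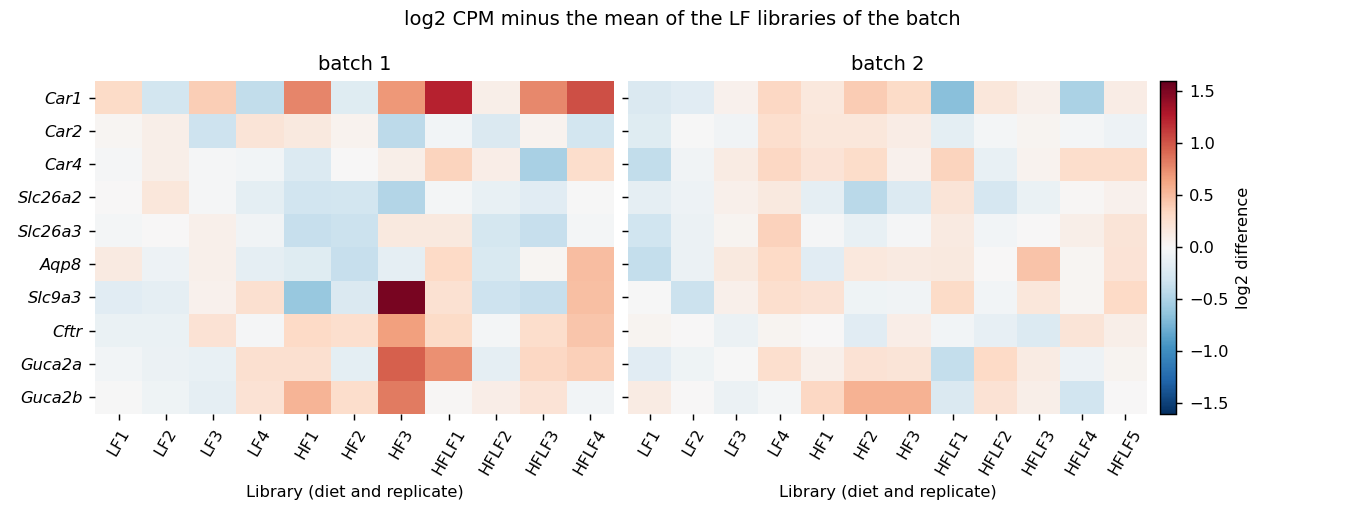
Each library's log2 CPM minus the mean of the LF libraries of its batch, for the 10 genes in rows and the libraries in columns, red above and blue below that mean. Guca2b is red in all 6 HF libraries and Slc26a2 blue in all 6, while Car1 and Slc9a3 change colour between libraries of 1 group.

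Within groups, several of the 10 genes rose and fell together. The closest pairs were Car4 and Slc26a3 (r = 0.78 over 23 libraries, with 0.71 in batch 1 and 0.85 in batch 2), Slc26a3 and Slc9a3 (r = 0.72) and Car1 and Aqp8 (r = 0.69). Of the 45 pairs 33 had r above 0, and only 25 had the same sign in both batches. In LF mice of batch 2, replicate 4 was the highest of its group for 9 of the 10 genes and replicate 1 the lowest for 7. These were the largest such counts of any library. The summed surface colonocyte markers ran in the same order, at 9177 CPM in replicate 1, 10280 in replicate 2, 10620 in replicate 3 and 11680 in replicate 4. Over all libraries, this sum had r within groups of 0.81 with Aqp8, 0.79 with Guca2a, 0.77 with Car1 and 0.67 with Slc26a3. The other values were 0.55 with Slc9a3, 0.41 with Car4, 0.35 with Guca2b, 0.14 with Cftr, 0.004 with Car2 and -0.10 with Slc26a2. For Cftr and Car2 the sign differed between the batches, with 0.66 in batch 1 and -0.56 in batch 2 for Cftr, and -0.40 and 0.75 for Car2. The libraries share depth and cell makeup, and the part of surface cells in these values was not tested.

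Genes with the most similar pattern were sought among 9367 genes with a mean of at least 10 CPM, by Pearson's r of log2 CPM over the 23 libraries after removal of the batch means. The nearest to Guca2b were Actl6a (r = 0.94), Abce1 (r = 0.93) and Nhp2l1 (r = 0.93). The nearest to Slc26a2 were Lipg (r = 0.83), Kif1c (r = 0.83) and Slc22a23 (r = 0.82). For Cftr, which had the third smallest p, they were Pbrm1 (r = 0.93), Lmbrd2 (r = 0.89) and Psme4 (r = 0.87). These values hold differences between the diets as well as within them.

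Of 70 other transport genes, 52 were tested over both batches, and 2 were higher and 4 lower in HF than in LF mice, beside 18.1% of all genes called. Slc4a2, the anion exchanger of the basolateral membrane, fell by 0.32 on the log2 scale (SE 0.0647, adjusted p = 0.00429 by edgeR), from 433.3 ± 36.0 CPM (SD, n = 8) in LF to 347.1 ± 37.6 CPM (SD, n = 6) in HF mice. Slc26a11, another member of the SLC26 family, fell by 0.33 (adjusted p = 0.00885 by edgeR). Slc4a3 fell by 0.63 (adjusted p = 0.0280) at a level of 0.598 ± 0.177 CPM (SD, n = 8) in LF mice. Slc4a11 rose by 1.35 (adjusted p = 0.00536 by edgeR) from 0.594 ± 0.264 CPM (SD, n = 8), and Car13, a cytosolic carbonic anhydrase, by 0.27 (adjusted p = 0.0255). In HFLF against HF mice 4 of the 52 were higher and 2 lower, beside 10.3% of all genes called. In HFLF against LF mice 0 of the 52 were called, as were 0% of all genes. The median of the 52 in HF against LF mice was -0.038 on the log2 scale.

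By family, HF mice had 1 of 9 tested carbonic anhydrases higher, 1 of 5 SLC26 exchangers lower, and 1 of 8 SLC4 bicarbonate transporters higher and 2 lower. These counts stand beside 18.1% of all genes called over both batches. Among 11 genes of chloride secretion and potassium recycling 0 were called, and among 4 aquaporins 0. Downstream of the guanylin peptides, 0 of 3 genes were called. Their receptor Gucy2c was at 523.0 ± 24.5 CPM (SD, n = 8) in LF and 531.6 ± 33.5 CPM (SD, n = 6) in HF mice, a log2 fold change of 0.02 (95% interval -0.08 to 0.13, adjusted p = 0.750 by edgeR). The cyclic GMP-dependent kinase Prkg2 had -0.14 (95% interval -0.29 to 0.02).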

How the data were processed

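RNA sequencing covered 23 libraries of mouse colonic epithelium. The values deposited by the authors are raw counts of reads per locus, not normalized. By the submitters' notes and the methods, they trimmed reads with cutadapt 1.2.1, mapped them to mm10 with STAR 2.5 and counted them with featureCounts 1.5.0-p1. How reads mapping to several genes were treated, and strand, are not given in the sources used here.

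Counts were scaled by TMM, filtered by filterByExpr and tested with edgeR 4.0.16 in R 4.3.3 (quasi-likelihood F test, Benjamini-Hochberg adjustment over all genes), with the 3 diets in 1 fit per batch and batch as a covariate over both. This left 14428, 14377 and 14385 genes. DESeq2 1.42.0, limma 3.58.1 (voom), other scalings, no filter and left-out libraries were alternatives. The method was tested on simulated data. CPM follow TMM scaling within a batch. Exact permutation tests are two-sided, and with 3 libraries against 4 can give no p below 0.0286. For HF against LF over both batches they can give none below 0.000816.

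The 10 genes and the marker and transport lists were chosen with earlier results of these data known. Named beside the 10 genes were called transport genes with the smallest p (up to 8), the 2 most abundant markers of each list, and the 3 genes most similar to each of 3 members. A marker and a called transport gene that this rule names are not reported here. Whether replicate numbers pair libraries is not established. Of 20 pairs with the same number in a batch, 6 had deviations correlated above 0.1 (median r = 0.05, highest 0.35). For pairs from another diet and batch it was 2 of 20 (median r = -0.06). For pairs of the same diet and number from the other batch it was 2 of 11 (median r = -0.01, highest 0.21). The main fits leave the replicate number out. Exon lengths and overlapping genes come from GENCODE M21.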

Additional observations from a re-analysis of the deposited data

How the results depend on the processing

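Among 90 log2 fold changes of the 10 genes (3 comparisons in batch 1, batch 2 and both), 6 were called, and 0 of these changed sign under any alternative run. Of the others, 31 changed sign under at least 1 alternative, and 0 of those changed values were called. In batch 1, HF against LF gave 2 genes with DESeq2 and 3 with limma voom, in place of 0, while the share of all genes called rose from 0% to 3.55% and 16.8%. Over both batches the number called between HF and LF fell from 2 to 1 with limma voom and with the length and GC correction, where Slc26a2 was lost. The share of all genes called fell as well, from 18.1% to 16.4% with limma voom and to 8.96% with the correction. Between HFLF and HF over both batches it fell from 2 to 1 with DESeq2, RLE size factors, no filter on low counts, limma voom, the length and GC correction, same-numbered libraries summed as 1 mouse, and the replicate block. In each of these Slc26a2 was lost, with a log2 fold change of 0.19 to 0.26, and Guca2b was called. The share of all genes called, 10.3% in the main fit, lay between 6.28% (length and GC correction) and 12.2% (DESeq2) in these runs. The length and GC correction was chosen after seeing the data. The number of the 10 genes whose diet effect differed between the batches was 0 by edgeR and by DESeq2 in each comparison. By edgeR, 0 of all 14385 genes tested passed at an adjusted p under 0.05 as well, so this count does not set the 10 genes apart. At an unadjusted p under 0.05 by edgeR there was 1 of 10 in each comparison. Over all genes there were 943 (HF against LF), 1090 (HFLF against LF) and 1105 (HFLF against HF).

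Whether replicate numbers pair the libraries is not established. With the replicate number as a block in batch 2, 2 genes were called between HFLF and HF, Guca2b and Car1, in place of 1. The share of all genes called there rose from 14.5% to 19.6%, and between HF and LF from 7.44% to 14.5%. The block also turned Cftr in batch 2 to 0.03 and Car4 in HFLF against HF over both batches to -0.02 on the log2 scale.

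Leaving out 1 library at a time gave 0 to 1 called between HF and LF in batch 1 and in batch 2, 2 to 3 over both batches, and, between HFLF and HF, 0 to 2 in batch 2 and 1 to 2 over both. Calls over all genes swung as well, from 0 to 1352, from 15 to 2560 and from 1591 to 3703 between HF and LF, and from 11 to 2778 and from 501 to 2669 between HFLF and HF, in the same order. In batch 1 the gene called without HF replicate 2 was Guca2b, and in batch 2 the call between HFLF and HF was lost without HF replicate 2. HF replicate 3 of batch 1 set the sign of Slc9a3, which ranged from -0.41 to 0.88 between HF and LF in batch 1, from -0.14 to 0.43 over both, and from -0.31 to 0.24 between HFLF and HF over both. Between HFLF and HF in batch 1 it ranged from -0.83 to 0.45, and between HF and LF in batch 2 from -0.08 to 0.12. With limma voom and sample weights the first 3 of these values were -0.36, -0.05 and 0.21. Guca2a between HFLF and HF in batch 1 ranged from -0.29 to 0.29. Between HFLF and HF over both batches Car1 ranged from -0.17 to 0.03 and Guca2a from -0.20 to 0.02. Cftr between HF and LF in batch 2 ranged from -0.08 to 0.07, and Guca2b between HFLF and LF from -0.01 to 0.05. Limma voom and the length and GC correction each gave 0.03 for Cftr in batch 2. The length and GC correction gave 0.00 for Guca2b between HFLF and LF, 0.13 for Car1 between HFLF and HF, and, between HF and LF over both batches, -0.07 for Car2 and -0.05 for Car4. Between 339 and 1642 reads were counted for Guca2b, the gene with the fewest, and the number of libraries limits the precision.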
